A study of Rattus norvegicus with 32 samples.

Results

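Transcripts of 6 genes that mark the mural cells of blood vessels were followed in rat gastrocnemius, a calf muscle. Tagln, Acta2, Myh11 and Cnn1 mark smooth muscle cells, and Pdgfrb and Rgs5 mark pericytes. The genes were chosen by symbol from the 12901 genes of the table of the whole series. All 6 were present, and all 6 were among the 11594 genes with enough counts to be tested. The study compared male UCP1 knockout rats with male control rats, which the labels also call wild-type, and muscle kept at room temperature with muscle after 2 weeks at 4 °C. UCP1 is the uncoupling protein of brown fat. The rats were 20 weeks old, and the series title describes them as chow-fed. The 4 groups were control rats at room temperature (control_RT, n = 7), control rats after cold (control_4C, n = 7), knockout rats at room temperature (KO_RT, n = 9) and knockout rats after cold (KO_4C, n = 9). The labels give neither the strain nor the way the knockout was made, and they do not say whether any rat gave muscle at both temperatures. The p-values therefore measure the spread between these 32 libraries.

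Mural cells wrap the endothelial tube of every vessel. Smooth muscle cells form the contractile coat of arteries and arterioles, and pericytes sit on capillaries. In skeletal muscle the tone of the arterioles sets how much blood reaches the fibres. Acta2 is smooth muscle alpha-actin, Myh11 the smooth muscle myosin heavy chain, Cnn1 the actin-binding calponin of smooth muscle, and Tagln the actin cross-linker transgelin, also called SM22. Pdgfrb is the receptor by which pericytes answer endothelial PDGF-B, and Rgs5 shortens signalling from G protein-coupled receptors in mural cells. Many contractile genes of smooth muscle are switched on by serum response factor, which binds CArG boxes, with its coactivator myocardin. In bulk muscle, fewer cells of a type and less RNA per cell cannot be told apart.

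The 250 bases before the annotated start are shown for Acta2 and Cnn1, the pair of members whose levels moved together most closely within groups, as given further on. RefSeq promoter sequences on GRCr8 matched 3 of the 6 members, Acta2, Cnn1 and Rgs5. A CArG box was searched for on both strands, by its name alone, exactly or with 1 substitution in its A/T core. Capitals mark boxes with 1 substitution. Acta2 lies at chr1:241172504-241172753 on the minus strand and Cnn1 at chr8:28908187-28908436 on the plus strand.
Acta2: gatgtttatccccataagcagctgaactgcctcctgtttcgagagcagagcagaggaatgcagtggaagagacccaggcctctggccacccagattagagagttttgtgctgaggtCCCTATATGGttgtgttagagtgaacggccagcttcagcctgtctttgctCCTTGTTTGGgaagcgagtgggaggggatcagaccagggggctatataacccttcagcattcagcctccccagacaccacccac
Cnn1: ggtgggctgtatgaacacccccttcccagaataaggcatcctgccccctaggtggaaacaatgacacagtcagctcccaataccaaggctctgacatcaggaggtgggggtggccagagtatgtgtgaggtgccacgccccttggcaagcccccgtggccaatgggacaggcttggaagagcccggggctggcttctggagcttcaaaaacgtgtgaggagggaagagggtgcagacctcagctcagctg
The Acta2 window held 2 such boxes, CCCTATATGG from position -134 and CCTTGTTTGG from position -84 relative to the start. No exact box was in it. It also held 1 MCAT element, the site of TEAD factors, searched as CATTCC on both strands and found from position -196. The Cnn1 and Rgs5 windows held 0 of either kind. Among all 33469 RefSeq promoters of the same length, 1.5% held an exact CArG box, 8.08% held one with at most 1 substitution, and 12.1% held an MCAT element. A match is a description of letters, not a binding site.

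Each library was a QuantSeq library, which counts tags at the 3′ ends of transcripts. Library totals ran from 7280000 to 25800000 counts. Every count in the table was an even number, so the number of independent reads is lower than the counts. Levels are given as CPM, library-scaled counts with TMM normalization,, and a member's level is compared between libraries, not with that of another gene. The skeletal muscle markers Acta1 (group means of 37042 to 46139 CPM) and Ckm (14567 to 20060 CPM) were high in all 4 groups. No check of the genotype by Ucp1 counts was made, since that gene was not analysed here. Earlier results of these data set control_RT replicates 2 and 3 and KO_RT library KO8 and KO_RT replicate 3 apart from their groups (KO8 has no replicate number, because labels of different samples carry its name), and 3 libraries (control_RT replicate 4, control_4C replicates 3 and 6) had the highest summed counts of intestinal epithelial markers. The summed level of the 26 intestinal genes in the table ran from 758.1 to 2346 CPM in control_RT, 791.8 to 3182 in control_4C, 767 to 1443 in KO_RT and 664.1 to 994.6 in KO_4C. Values without these libraries are given beside the results that they moved.

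After cold, transcripts of 3 smooth muscle genes, Tagln, Acta2 and Cnn1, rose in control rats, by 1.55 to 2.98-fold. None of the 6 genes fell. Of all genes tested, 20.7% were called in that comparison, 12.4% higher and 8.29% lower, in edgeR's quasi-likelihood test with Benjamini-Hochberg adjusted p under 0.05 over all genes tested. The members' median log2 change was 0.594, beside 0.0312 over all genes tested.

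Tagln (ENSRNOG00000017628) had the largest change of the 6. In control_RT its lowest, median and highest levels were 4.01, 9.64 and 14.1 CPM. In control_4C they were 15.9, 29.8 and 37.3 CPM, so that every cold library stood above every room-temperature library. A gap of this kind, higher in cold, was found for 3.42% of all genes tested. The group means were 9.91 ± 3.4 (SD, n = 7) and 29.6 ± 7.27 CPM (SD, n = 7). The log2 change was 1.58 ± 0.33 (SE; adjusted p = 0.00121 in edgeR's quasi-likelihood test), and 7 of 7 cold libraries exceeded the room-temperature mean. With any single library left out of the 32, the change lay between 1.44 and 1.66 and the call was kept. The lowest count behind a Tagln value was 42, in KO_RT.

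Acta2 (ENSRNOG00000058039), the actin of the contractile filament, also rose. In control_RT it ran from 79.1 through a median of 106 to 119 CPM, with a mean of 103 ± 13.1 (SD, n = 7). In control_4C it ran from 78.8 through 155 to 214 CPM, with a mean of 160 ± 44.0 (SD, n = 7). The groups overlapped through 1 library, control_4C replicate 6, at 78.8 CPM; the other 6 cold libraries stood above every room-temperature library. The log2 change was 0.64 ± 0.23 (SE; adjusted p = 0.0464 in edgeR's test). The call was close to the threshold and was lost in 22 of the 32 fits that left out 1 library, with adjusted p up to 0.109 and a change between 0.53 and 0.73.

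Cnn1 (ENSRNOG00000027736) rose as well. Its levels in control_RT were 3.14, 6.74 and 9.68 CPM (lowest, median, highest) and its mean was 6.63 ± 1.92 (SD, n = 7). In control_4C they were 6.28, 12.7 and 16.7 CPM, with a mean of 12.1 ± 3.30 (SD, n = 7). Replicate 6 was again the cold library inside the room-temperature range. The log2 change was 0.87 ± 0.32 (SE; adjusted p = 0.0465 in edgeR's test), and leaving out single libraries ended the call in 20 of 32 fits with a change of 0.74 to 0.97.

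Myh11 (ENSRNOG00000057880) did not pass edgeR's test in the fit over all 4 groups. Its levels were 22.4, 26.5 and 33.9 CPM in control_RT (lowest, median, highest) and 31.3, 36.2 and 54.1 CPM in control_4C. The ranges met between 31.3 and 33.9 CPM. The log2 difference was 0.55 ± 0.21 (SE; adjusted p = 0.0581), with 7 of 7 cold libraries above the room-temperature mean of 27.1 ± 4.44 CPM (SD, n = 7). DESeq2 placed the same difference past the threshold, at an adjusted p of 0.0442. By DESeq2, 4 of the 6 members were called in control rats, where 21.7% of all genes were. A fit of edgeR on the compared groups alone also called 4 members, with Myh11 at 0.53 (adjusted p = 0.0117). That fit called 2381 of all genes, beside 2400 in the fit over all 4 groups.

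**Figure D1:**
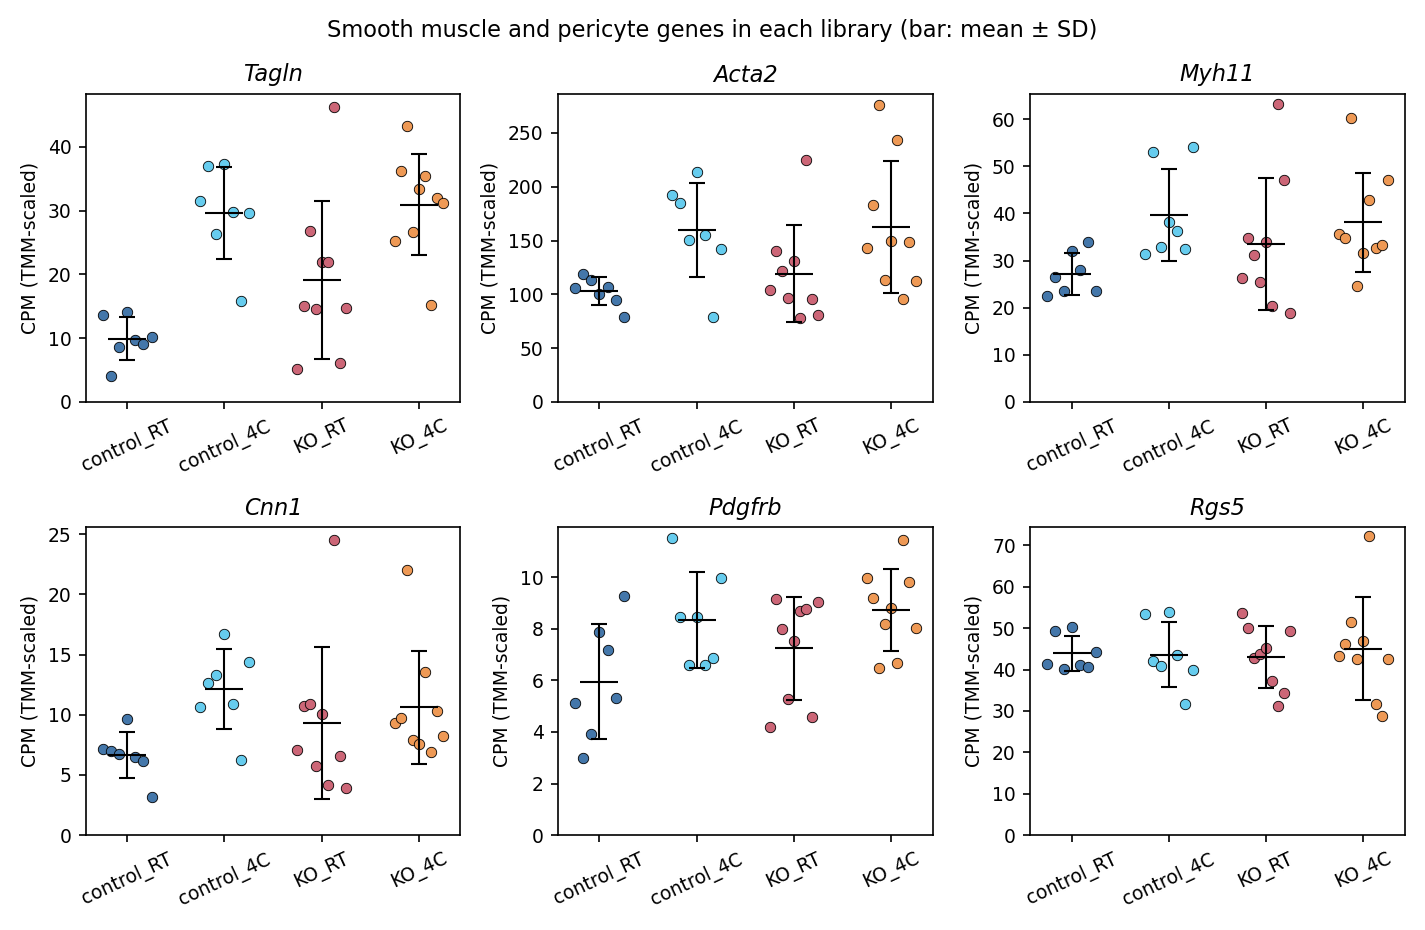
Levels in TMM-scaled CPM (vertical axes) of the 6 genes in each library of the 4 groups (horizontal axes); points are libraries and bars the mean ± SD. The control_4C libraries sit above the control_RT libraries for Tagln without overlap, while Rgs5 has about the same mean in the 4 groups (43.0 to 45.1 CPM).

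The pericyte receptor Pdgfrb (ENSRNOG00000018461) was measured with 32 to 216 counts per library. Its levels were 3.0, 5.30 and 9.27 CPM in control_RT (lowest, median, highest) and 6.58, 8.45 and 11.5 CPM in control_4C. Cold libraries were all above the room-temperature mean of 5.95 ± 2.24 CPM (SD, n = 7), yet control_RT replicates 4, 5 and 7 lay within the cold range. The log2 difference of 0.48 ± 0.21 (SE) did not pass edgeR's test (adjusted p = 0.0922). Without control_RT replicate 7, the highest of its group, it was 0.62 (adjusted p = 0.0301). With other single libraries left out it went down to 0.37 (adjusted p up to 0.215), and without the 4 libraries set apart it was 0.26 (adjusted p = 0.355).

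Rgs5 (ENSRNOG00000002730) had nearly the same mean level in all 4 groups. In control_RT it ran from 40.2 through 41.3 to 50.2 CPM and in control_4C from 31.6 through 42.1 to 54.0 CPM. In KO_RT it ran from 31.2 through 43.7 to 53.6 CPM and in KO_4C from 28.9 through 43.3 to 72.2 CPM. The means were 43.9 ± 4.20, 43.6 ± 7.85, 43.0 ± 7.52 and 45.1 ± 12.5 CPM in that order (SD, n = 7, 7, 9 and 9). No difference in any of the comparisons passed edgeR's test. The log2 difference with cold was -0.01 ± 0.14 (SE; adjusted p = 0.973) in control rats, with a 95% interval (1.96 SE to each side) of -0.29 to 0.27, and 0.07 ± 0.13 (adjusted p = 0.771) in knockout rats, with an interval of -0.18 to 0.32. These intervals bound the change but do not show that there was none.

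In knockout rats, 0 of the 6 members passed edgeR's test for cold, where 13.8% of all genes were called, 7.5% higher and 6.27% lower. At an unadjusted p under 0.05 there were 2 members, beside 3136 of the 11594 genes tested. DESeq2 also called 0 (16.2% of all genes). Tagln in KO_RT ran from 5.20 through 15.1 to 46.2 CPM (mean 19.2 ± 12.4, SD, n = 9) and in KO_4C from 15.1 through 32 to 43.3 CPM (mean 30.9 ± 7.97, SD, n = 9). The KO_RT median thus lay at the bottom of the KO_4C range, with KO_RT library KO8 and replicate 3 far below it at 6.02 and 5.20 CPM. Only KO_RT replicate 9, at 46.2 CPM, reached the top of the cold range. The next highest, KO_RT replicate 5, had 26.9 CPM. The log2 difference was 0.68 ± 0.29 (SE; adjusted p = 0.113), with 8 of 9 cold libraries above the room-temperature mean. Acta2 had 77.8, 104 and 225 CPM in KO_RT (lowest, median, highest) and 95.6, 148 and 276 CPM in KO_4C, a log2 difference of 0.45 ± 0.20 (SE; adjusted p = 0.143). Single libraries moved this result in both directions. Without the 4 libraries set apart, Tagln was at 0.43 (adjusted p = 0.250). In that fit 0 members had an unadjusted p under 0.05, beside 2796 of all genes. Without KO_RT replicate 9, Tagln (0.95, adjusted p = 0.0110) and Acta2 (0.61, adjusted p = 0.0232) both passed edgeR's test, giving 2 members called. Over the fits that left out 1 library, 1330 to 1703 of all genes were called. Replicate 9 had the highest Tagln and Acta2 of KO_RT, so leaving it out raises both differences by construction.

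The remaining members differed less with cold in knockout rats. Myh11 had 18.8, 31.2 and 63.1 CPM in KO_RT and 24.6, 34.7 and 60.2 CPM in KO_4C (log2 difference 0.19 ± 0.18, SE; adjusted p = 0.552 in edgeR's test). Cnn1 had 3.95, 7.05 and 24.5 CPM in KO_RT and 6.88, 9.27 and 22.0 CPM in KO_4C (0.18 ± 0.28; adjusted p = 0.724). Each of these pairs of ranges overlapped over most of its length. Pdgfrb had 4.21, 7.98 and 9.17 CPM in KO_RT and 6.49, 8.79 and 11.4 CPM in KO_4C (0.26 ± 0.18; adjusted p = 0.369). The members' median log2 difference was 0.227, beside 0.0124 over all genes tested.

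Between genotypes at room temperature, 0 of the 6 members passed edgeR's test, where 2.61% of all genes were called. By an unadjusted p under 0.05 there was 1 member, Tagln, beside 1989 of the 11594 genes tested. DESeq2 called 0 members (4.82% of all genes). Tagln was on average 1.94-fold higher in KO_RT than in control_RT, a log2 difference of 0.96 ± 0.32 (SE; adjusted p = 0.0997 by edgeR). In 7 of 9 knockout libraries it exceeded the control mean, and the 2 that did not were KO_RT library KO8 and replicate 3. Without KO8 the difference was 1.05 (adjusted p = 0.0310), and without replicate 3 it was 1.06 (adjusted p = 0.0204), both past the threshold. Without KO_RT replicate 9 it was 0.66 (adjusted p = 0.235). Without KO8, replicate 3 and control_RT replicates 2 and 3 it was 1.0 ± 0.27 (SE; adjusted p = 0.0226). These were the lowest Tagln libraries of their groups (6.02 and 5.20 CPM in KO_RT, 4.01 and 8.61 CPM in control_RT). Leaving out a library at an end of its group moves the difference or its spread by construction. These fits are therefore no independent support for the difference. With a library index as a covariate, described further on, the difference was 0.16 ± 0.25 (SE; adjusted p = 0.860). That fit called 1 of all genes, beside 303 without the index. The median index was 2.53 in KO_RT and 1.24 in control_RT, whose highest was 1.87. Apart from KO8 and replicate 3, every KO_RT library lay above every control_RT library. The index and genotype thus cannot be told apart well at room temperature. For the other 5 members the log2 differences ran from -0.03 (Rgs5) to 0.50 (Cnn1), with adjusted p from 0.411 to 0.947.

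At 4 °C the genotypes gave close means for all 6 genes. Tagln averaged 29.6 CPM in control_4C and 30.9 CPM in KO_4C, a log2 difference of 0.06 ± 0.30 (SE; adjusted p = 0.966 in edgeR's test). Acta2 averaged 160 and 163 CPM (0.03 ± 0.22; adjusted p = 0.979). The members' differences ran from -0.19 (Cnn1) to 0.06, and 0 of 6 passed, where 0.0518% of all genes were called. By an unadjusted p under 0.05 there were 0 members, beside 1698 of the 11594 genes tested. DESeq2 also called 0 (3.79% of all genes). The 95% interval of the Tagln difference ran from -0.53 to 0.65, and that of Acta2 from -0.39 to 0.45.

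Whether the response to cold depended on genotype was tested by the interaction, the knockout response minus the control response. None of the 6 members passed (0.0259% of all genes did), and DESeq2 called 0 (0.855% of all genes). Of the 11594 genes tested, 1497 had an unadjusted p under 0.05, 1 member among them. That gene was Tagln, whose cold response was lower in knockout rats by -0.90 ± 0.43 on the log2 scale (SE; adjusted p = 0.381 in edgeR's test), with a 95% interval of -1.75 to -0.04. With the library index as a covariate it was -0.00042 (adjusted p = 0.9997 in edgeR's test). No SE is given for it, because an SE taken from the change and its F value is unreliable so close to 0. The index went with cold in control rats and largely with genotype at room temperature, so that fit cannot separate it from the interaction. Cnn1 followed with -0.70 ± 0.42 (adjusted p = 0.502) and Myh11 with -0.36 ± 0.28 (adjusted p = 0.618). Acta2, Pdgfrb and Rgs5 lay between -0.22 and 0.08. So the calls made in control rats and missed in knockout rats were not shown to differ between genotypes. Each of these comparisons shares a group of libraries with another.

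**Figure D2:**
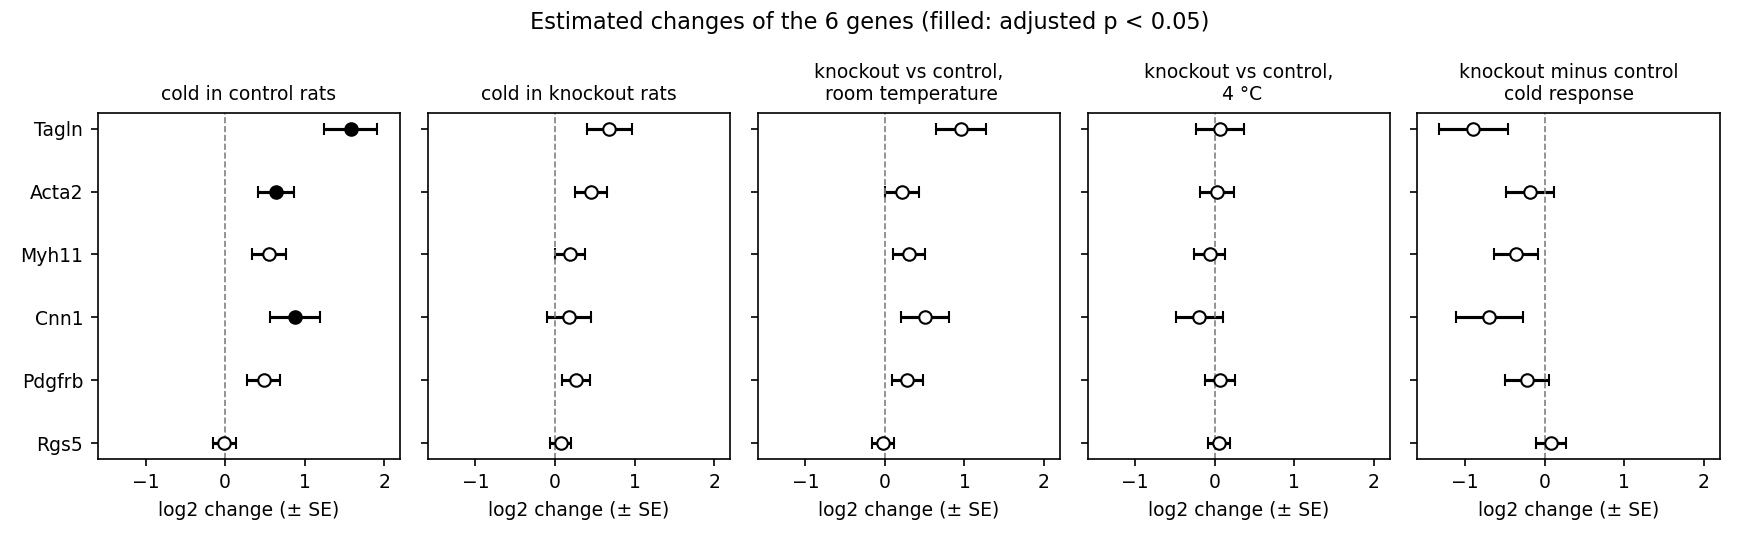
Log2 changes of the 6 genes (points) with standard errors (bars) on the horizontal axes, for the 5 comparisons in separate panels; filled points have an adjusted p under 0.05. The filled points are Tagln (1.58), Acta2 (0.64) and Cnn1 (0.87) for cold in control rats, and no other panel has any.

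The members split within groups. After group means were removed, log2 CPM values of Acta2 and Cnn1 rose and fell together over the 32 libraries, with r = 0.864 and rho = 0.808. The adjusted p was 0.00015 for each, over 15 pairs, from 100000 two-sided permutations within groups (the raw p of 1e-05 is the smallest they can give). Without the 2 libraries farthest from the median of Acta2, r was 0.812. In the same permutation test, Cnn1 and Myh11 were related as well (r = 0.726, adjusted p = 0.0003; rho = 0.636, adjusted p = 0.00292), with an r of 0.557 without 2 libraries. Acta2 and Myh11 gave r = 0.575 (adjusted p = 0.0104) and rho = 0.453 (adjusted p = 0.0472), and an r of 0.46 without 2 libraries. These 3 genes encode the contractile actin, its heavy-chain motor and its calponin.

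Tagln was related to Acta2 (r = 0.519, adjusted p = 0.0108 by permutation; rho = 0.523, adjusted p = 0.0202; r of 0.442 without 2 libraries) and to Cnn1 (r = 0.508, adjusted p = 0.0393; rho = 0.525, adjusted p = 0.0224; r of 0.391 without 2 libraries). Its r with Myh11 was 0.272 (adjusted p = 0.45). Tagln and Pdgfrb gave r = 0.508 (adjusted p = 0.0233), but rho = 0.346 (adjusted p = 0.163), and an r of 0.404 without 2 libraries. Between Pdgfrb and Acta2, Myh11 or Cnn1, r lay between -0.0874 and -0.0652 (adjusted p = 0.767 for each). Rgs5 had r = 0.417 with Acta2 (adjusted p = 0.0881; rho = 0.445, adjusted p = 0.0472), and r was 0.577 without 2 libraries. The pericyte markers Pdgfrb and Rgs5 had an r of -0.145 with each other (adjusted p = 0.61).

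**Figure D3:**
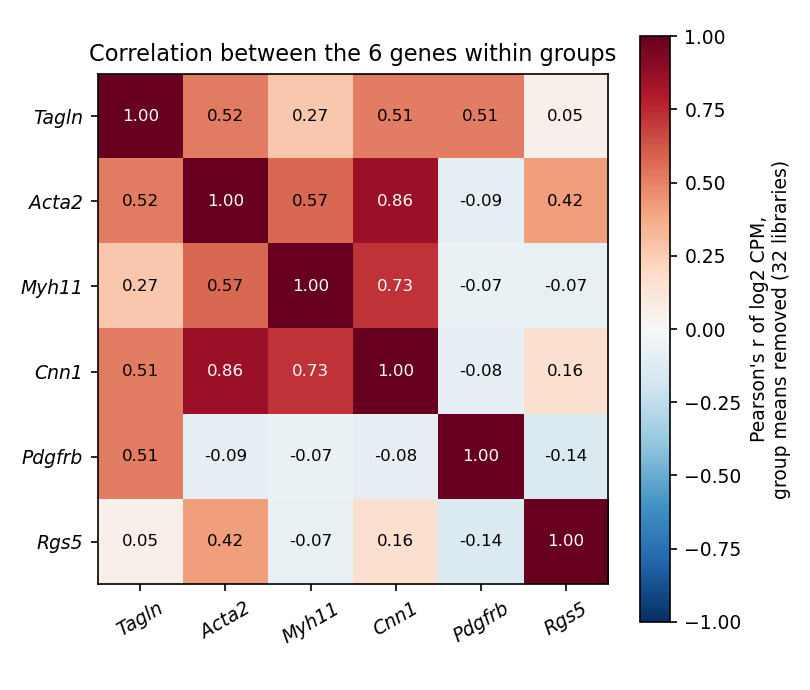
Pearson's r between the log2 CPM values of each pair of the 6 genes after group means were removed (colour and number in each cell, 32 libraries, 15 pairs). The block of high values joins Acta2, Cnn1 and Myh11 (0.575 to 0.864), and the Pdgfrb cells with those 3 genes are near 0.

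A few libraries stood at the ends of that shared movement. KO_RT replicate 9 held the highest level of its group for Tagln (46.2 CPM), Acta2 (225 CPM), Myh11 (63.1 CPM) and Cnn1 (24.5 CPM). Yet it had the lowest Rgs5 of the group (31.2 CPM) and an inner Pdgfrb value (8.75 CPM). Its summed endothelial (286.8 CPM), fibroblast (1704 CPM) and tendon (192.8 CPM) markers lay inside the range of its group. KO_4C replicate 3 was likewise the highest of its group for Tagln (43.3 CPM), Acta2 (276 CPM), Myh11 (60.2 CPM) and Cnn1 (22.0 CPM), with the lowest Pdgfrb (6.49 CPM). In control_4C replicate 6, 0 of the 6 members were above their group means, and Tagln (15.9 CPM), Acta2 (78.8 CPM), Cnn1 (6.28 CPM) and Rgs5 (31.6 CPM) were the lowest of the group. That library had the second highest intestinal marker sum of the series, 2714 CPM; whether this played a part was not tested. Without control_4C replicate 6 the Acta2 change with cold in control rats was 0.73.

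Tagln and Pdgfrb followed another feature of the libraries. In KO_RT replicate 3, 219 genes other than the members were at least 2 log2 units below the median of the other KO_RT libraries, and their mean log2 CPM was taken as an index of each library, chosen after the data were seen. By construction replicate 3 was the lowest, at -0.162. KO_RT library KO8 (0.918) and control_RT replicates 2 (0.447) and 3 (0.861) were next. The index ran from 0.447 to 1.87 in control_RT and from 2.38 to 2.72 in control_4C, without overlap, and medians were 2.53 in KO_RT and 2.48 in KO_4C. Within groups the index was related to Tagln (r = 0.755, adjusted p = 0.00027; rho = 0.613, adjusted p = 0.00078) and to Pdgfrb (r = 0.704, adjusted p = 0.00024; rho = 0.68, adjusted p = 0.00072), over 6 relations and from 100000 permutations within groups. These p-values include KO_RT replicate 3, from which the index genes were picked. That library also had the lowest Tagln and Pdgfrb of its group, so part of each relation was built in. No p-value was computed without it. Without KO_RT library KO8 and replicate 3 the r was 0.587 for Tagln and 0.666 for Pdgfrb. For Acta2, Myh11, Cnn1 and Rgs5 the r lay between -0.169 and 0.0593.

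The same feature was also entered into the cold comparison in control rats. With the index as a covariate, 0 of the 6 members were called, where 395 of all genes were, against 2400 without it. The Tagln change was 0.55 ± 0.28 (SE; adjusted p = 0.323 in edgeR's test), against 1.58 without it. Acta2 was at 0.59 ± 0.30 (adjusted p = 0.320), Cnn1 was at 0.66 (adjusted p = 0.416), and Pdgfrb was at -0.09 (adjusted p = 0.864). Acta2 thus kept nearly its size (0.64 ± 0.23 without the index) with a larger SE. Myh11 was at 0.59, against 0.55 without the index. Because the index does not overlap between control_RT and control_4C, the index and cold cannot be told apart in control rats. Without the 4 libraries set apart, which include control_RT replicates 2 and 3, Tagln was still called (1.38, adjusted p = 0.000783), whereas Acta2 (0.70, adjusted p = 0.0837) and Cnn1 (0.89, adjusted p = 0.112) were not, with changes of about the same size as before and larger standard errors (0.28 and 0.38). Without the 3 libraries high in intestinal markers, 5 members were called, Myh11 (adjusted p = 0.0443) and Pdgfrb (0.66, adjusted p = 0.0412) among them. That fit called 2092 of all genes, beside 2400 in the fit over all 32 libraries. It left out control_4C replicate 6, the lowest of its group for Tagln, Acta2, Cnn1 and Rgs5.

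**Figure D4:**
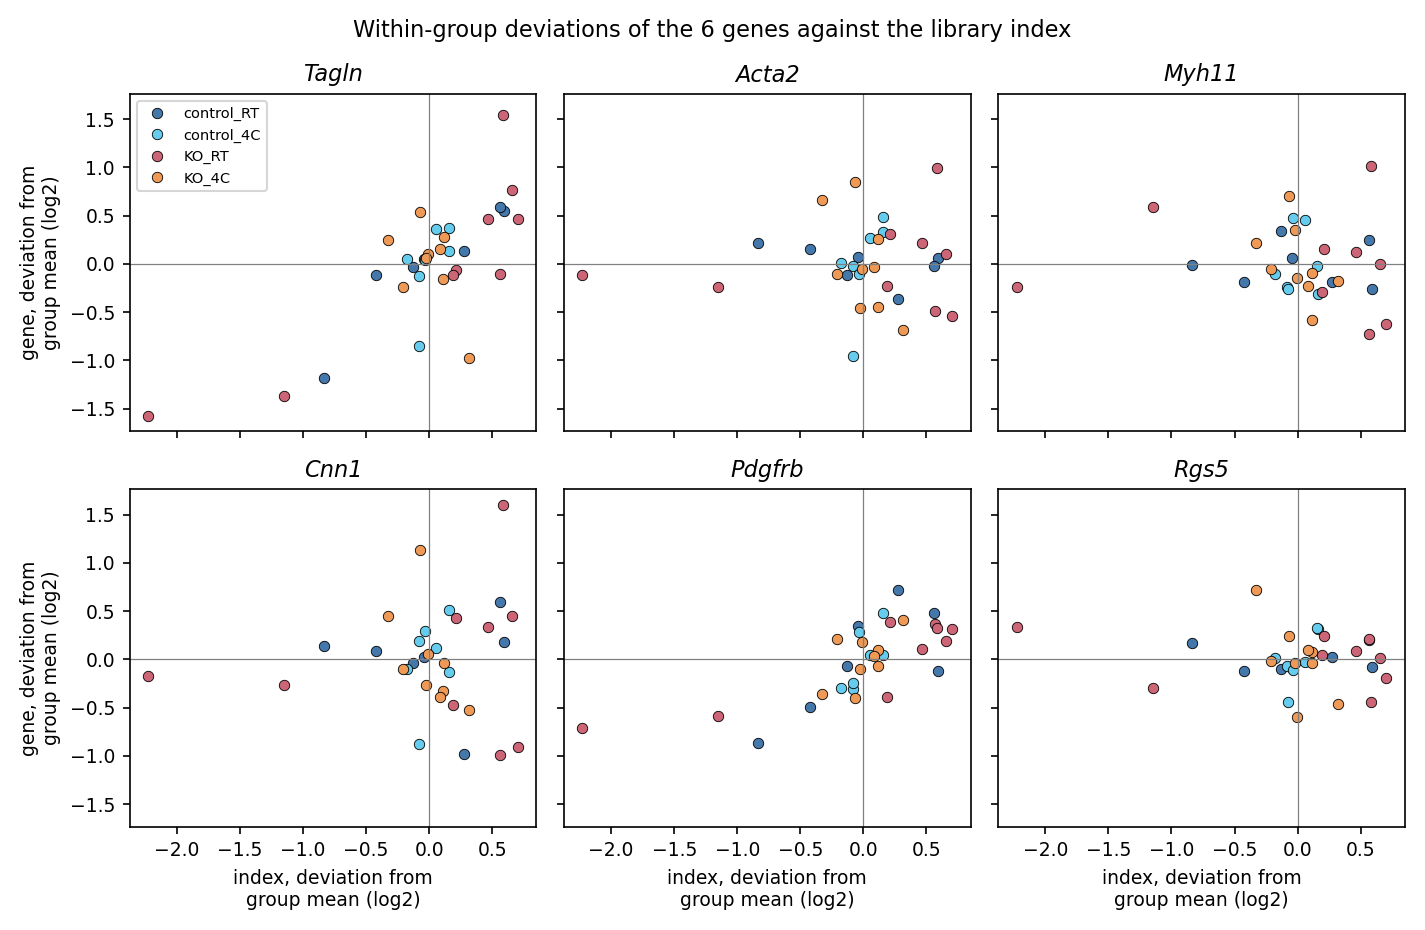
Deviation of each gene from its group mean (vertical axes, log2 CPM) against the deviation of the library index (horizontal axes, log2 CPM); points are the 32 libraries, coloured by group. Tagln (r = 0.755) and Pdgfrb (r = 0.704) rise with the index, and the r of the other 4 genes lies between -0.169 and 0.0593.

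Other contractile and cytoskeletal genes of smooth muscle gave 5 higher and 1 lower of 18 tested with cold in control rats, with a median log2 change of 0.358. For this list and those below, the shares called among all genes tested were 20.7% with cold in control rats and 13.8% in knockout rats. The actin cross-linker Flna (0.49 ± 0.14, SE; adjusted p = 0.0132 in edgeR's test), the LIM protein Csrp2 (0.67 ± 0.16; adjusted p = 0.00321), the thin-filament regulator Cald1 (0.41 ± 0.13; adjusted p = 0.0230) and the transgelin relative Tagln2 (0.38 ± 0.09; adjusted p = 0.00250) rose. Synpo2, an actin-bundling protein also found in the Z-discs of skeletal fibres, fell (-0.57 ± 0.16; adjusted p = 0.0109). In knockout rats 1 rose, Tagln2 (0.41 ± 0.08; adjusted p = 0.000455), and 1 fell, Synpo2 (-0.79 ± 0.14; adjusted p = 0.000166), of the same 18. The myosin light chain Myl9 had a log2 difference of 0.45 ± 0.17 in control rats (adjusted p = 0.0593). Several of the listed genes, among them Flna, Tagln2 and Csrp1, are expressed by other cells too.

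The actins closest to Acta2 behaved differently from one another. Actg2, the enteric smooth muscle actin, averaged 3.63 CPM in control_RT and 6.65 CPM in control_4C (log2 difference 0.89 ± 0.33, SE; adjusted p = 0.0552 in edgeR's test). Actc1, the cardiac actin that regenerating fibres also make, rose with cold in control rats (1.81 ± 0.39; adjusted p = 0.00134) and in knockout rats (1.91 ± 0.34; adjusted p = 0.000245). Within groups, the r of Acta2 was 0.742 with Actg2, -0.0303 with Actc1 and -0.117 with the skeletal actin Acta1. How reads shared by these near-identical genes were assigned is not given in the sources used here, so their separate values are uncertain.

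Regulators of smooth muscle genes gave 3 higher and 2 lower of 12 tested with cold in control rats. Those that rose were the transcription factors Ebf1 (0.64 ± 0.15, SE; adjusted p = 0.00229 in edgeR's test), Foxc1 (0.74 ± 0.26; adjusted p = 0.0359) and Foxf1 (1.24 ± 0.44; adjusted p = 0.0399). The TEAD factors fell: Tead1 by -1.01 ± 0.18 (adjusted p = 0.000201) and Tead4 by -0.65 ± 0.15 (adjusted p = 0.00155). Both also fell in knockout rats (-1.39 ± 0.16, adjusted p = 2.63e-07, and -0.67 ± 0.13, adjusted p = 0.000379). Both are also expressed in muscle fibres and their precursors. Srf itself differed by 0.15 (adjusted p = 0.519) in control rats and the coactivator Myocd by -0.54 ± 0.42 (adjusted p = 0.391), neither past the threshold.

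Other pericyte genes gave 4 higher and 0 lower of 13 tested with cold in control rats, with a median of 0.154. Kcnj8, the pore of the ATP-sensitive potassium channel of pericytes, averaged 8.32 CPM in control_RT and 14.3 CPM in control_4C and rose by 0.78 ± 0.21 (SE; adjusted p = 0.00706 in edgeR's test). Cspg4, the NG2 proteoglycan, rose from 8.41 to 13.9 CPM (0.72 ± 0.20; adjusted p = 0.0106). Art3 (0.61 ± 0.13; adjusted p = 0.00122) and the peptidase Anpep (0.70 ± 0.25; adjusted p = 0.0493) rose as well. Which cells of the muscle these transcripts came from was not tested. In knockout rats Kcnj8 alone was called, rising from 6.93 to 13.3 CPM (0.95 ± 0.19; adjusted p = 0.000506). Abcc9, the partner subunit of Kcnj8, differed by -0.03 in control rats (adjusted p = 0.834). Art3 was also called higher in KO_RT than in control_RT (0.51 ± 0.13; adjusted p = 0.0207).

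**Figure D5:**
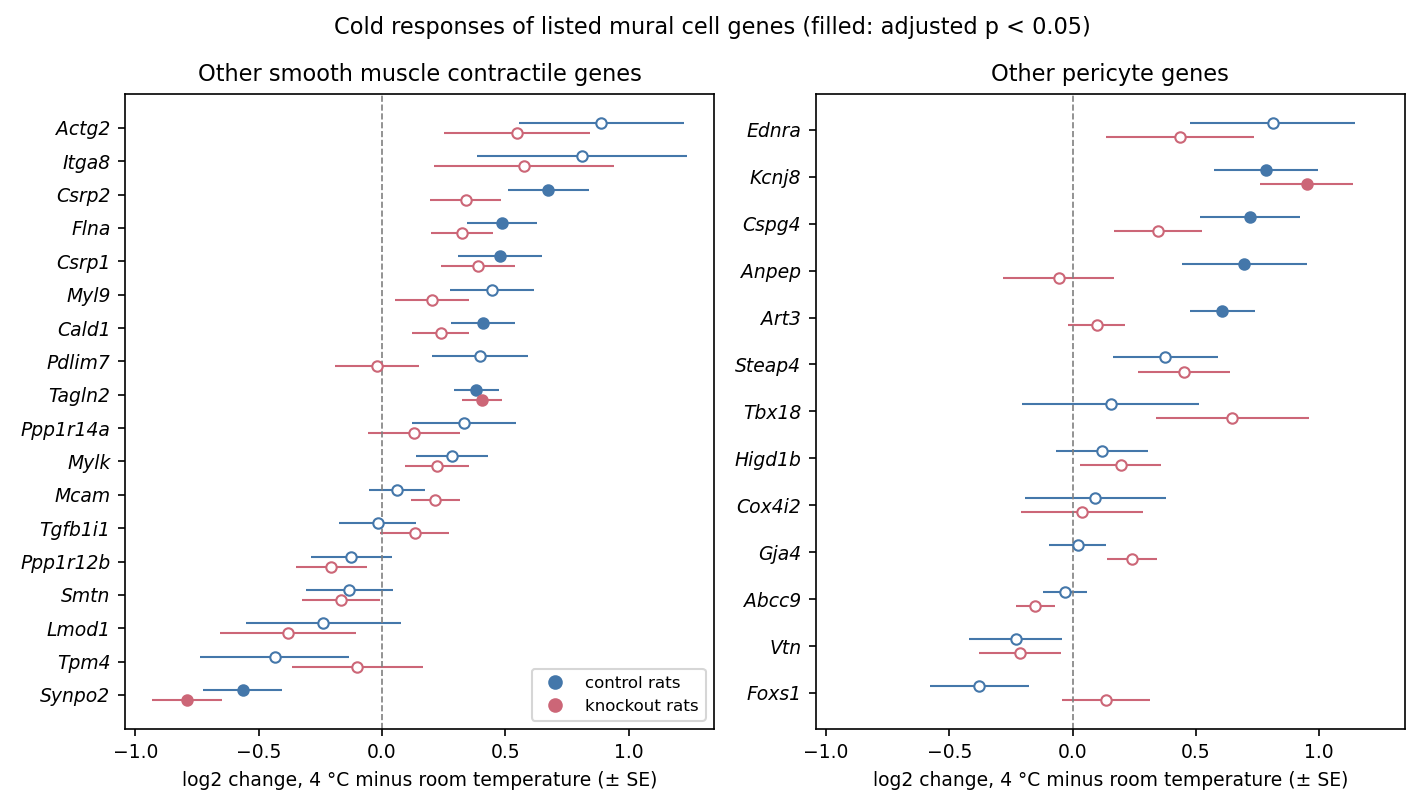
Log2 change with cold (horizontal axes, bars are standard errors) of other contractile genes of smooth muscle and other pericyte genes, in control rats (blue) and knockout rats (red); filled points have an adjusted p under 0.05. In control rats 5 of 18 contractile genes and 4 of 13 pericyte genes are filled to the right of 0, and in knockout rats 1 of each, Tagln2 and Kcnj8. Of all genes tested, 12.4% were called higher in control rats and 7.5% in knockout rats.

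Around Pdgfrb, genes of PDGF signalling gave 2 higher and 1 lower of 12 tested in control rats, near the 20.7% of all genes called there. Plat, the tissue plasminogen activator that can release active PDGF-C, rose (1.34 ± 0.21, SE; adjusted p = 5.6e-05 in edgeR's test), and the ligand Pdgfc fell (-0.66 ± 0.20; adjusted p = 0.0152). In knockout rats the same 2 genes of the 12 were called, Plat at 0.99 ± 0.18 (adjusted p = 0.000245) and Pdgfc at -0.63 ± 0.17 (adjusted p = 0.0110). Of all genes, 13.8% were called there. The sister receptor Pdgfra, which marks fibroblast-like cells, rose in control rats (0.34 ± 0.11; adjusted p = 0.0313). The ligands of Pdgfrb were not called: Pdgfb differed by 0.58 ± 0.30 (adjusted p = 0.173) and Pdgfd by 0.65 ± 0.30 (adjusted p = 0.122). Of 16 genes of TGF-beta, angiopoietin and Notch signalling to mural cells, 3 rose in control rats, Tgfbr3, Jag1 and Angpt2, and 3 in knockout rats, Eng, Acvrl1 and Tgfbr3. None fell.

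Around Rgs5, relatives and Gq-coupled vasoconstrictor signalling gave 7 higher and 0 lower of 24 tested in control rats. The relatives Rgs4 (0.65 ± 0.16, SE; adjusted p = 0.00406 in edgeR's test), Rgs19 (1.26 ± 0.32; adjusted p = 0.00430) and Rgs16 (1.07 ± 0.30; adjusted p = 0.0110) rose, beside a difference of -0.01 for Rgs5. The endothelin receptor Ednrb rose too (1.04 ± 0.31; adjusted p = 0.0157), and Ednra, the receptor of smooth muscle, differed by 0.81 ± 0.33 (adjusted p = 0.0800). In knockout rats 3 were higher and 1 lower, with Rgs4 (0.62 ± 0.14; adjusted p = 0.00270) again among the higher. Rgs19 was also called higher in KO_RT than in control_RT (1.30 ± 0.30; adjusted p = 0.0172). No list had a called gene between genotypes at 4 °C or in the interaction.

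Markers of the neighbouring cells moved in part with the members. Endothelial genes gave 3 higher of 12 tested in control rats and 5 higher in knockout rats, Flt1, Esam and Vwf among both. The summed level of the 13 endothelial genes in the table ran from 254.8 to 334.7 CPM in control_RT, 277.8 to 407.1 in control_4C, 265.6 to 350.3 in KO_RT and 347.9 to 429.2 in KO_4C. In the knockout comparison the endothelial sum of 8 of 9 KO_4C libraries exceeded every KO_RT library. The closest of them was KO_4C replicate 3, at 350.5 CPM against 350.3 CPM in KO_RT library KO8. The share of all genes with such a gap was not computed. The endothelial cadherin Cdh5 differed by 0.03 in control rats (adjusted p = 0.926). Fibroblast genes gave 4 higher of 12 tested in control rats, Postn among them (1.13 ± 0.25, SE; adjusted p = 0.00160 in edgeR's test), and 1 higher and 1 lower in knockout rats. The lower one was Col1a1 (-1.62 ± 0.31; adjusted p = 0.000522). The summed level of 13 fibroblast genes ran from 1572 to 1962 CPM in control_RT, 1556 to 2496 in control_4C, 1533 to 2716 in KO_RT and 1557 to 2328 in KO_4C. Tendon genes gave 1 higher and 1 lower of 7 in control rats, with sums of 112.7 to 259 CPM in control_RT and 216.1 to 415.5 in control_4C. In knockout rats 0 were higher and 1 lower, with sums of 149.9 to 633.3 CPM in KO_RT and 196.6 to 608.5 in KO_4C. Red blood cell genes gave 4 higher of 6 in control rats and 1 higher in knockout rats. Their sums ran from 228.6 to 760.7 CPM in control_RT and from 382.6 to 735.7 in control_4C apart from replicate 2, which had 3496 CPM; they ran from 226.3 to 781.3 CPM in KO_RT and from 515.8 to 1247 in KO_4C. Skeletal muscle genes gave 2 higher and 4 lower of 11 in each genotype, and their mean summed level went from 160200 CPM at room temperature to 134700 CPM in cold in control rats, and from 155800 to 134700 CPM in knockout rats. Intestinal epithelial genes gave 6 higher of 25 in control rats and 0 in knockout rats, and at most 2 of the 26 were at 0 in any library. The part of these neighbouring cells in the members' changes was not tested, beyond the fit without the 3 libraries.

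Genes of like pattern were named as the 3 with the highest within-group r for each member, over 32 libraries and as a description. For Acta2 these were Flna (0.903), the elastic-fibre protein Eln (0.751) and Actg2 (0.742), and for Cnn1 Actg2 (0.814), Flna (0.776) and Eln (0.706). For Myh11 they were Actg2 (0.673), Cald1 (0.672) and Myl9 (0.66). Acta2 and Cnn1 shared all 3 of these genes, and Myh11 shared Actg2 with them. For Tagln they were Cd164 (0.863), Igfbp7 (0.832) and Lrif1 (0.823), for Pdgfrb Rilpl2 (0.823), Mettl14 (0.821) and Slc28a2 (0.817), and for Rgs5 Clic5 (0.783), Snx16 (0.736) and Ddx6 (0.726). None of these 9 is a contractile gene. All those named for Tagln and Pdgfrb were lowest in libraries of low index: KO8 and replicate 3 of KO_RT, and replicate 2 of control_RT. Their relation to the index was not tested. Igfbp7, a secreted protein of vessel walls, rose with cold in control rats (0.87 ± 0.21, SE; adjusted p = 0.00278 in edgeR's test) and in knockout rats (0.59 ± 0.18; adjusted p = 0.0251).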

How the data were processed

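RNA from 32 gastrocnemius samples was sequenced from transcript 3′ ends (QuantSeq, 50-base forward reads), per the labels' protocols. The authors deposited a table of counts per gene, and a second table that was found to equal those counts divided by 1 size factor per library (0.523 to 2.06), a normalized signal that served only to find the members. R 3.4.3, DESeq2 1.18.1 and Rnor_6.0 are named in the submitters' processing notes; which aligner and counter were used is not given in the sources used here. Replicate numbers come from the sample descriptions; the titles number the KO_RT libraries otherwise, and KO_RT replicate 3 is titled KO10. The columns KO8 and KO9 match the title of one KO_RT sample and the description of another, so these 2 libraries entered KO_RT without a replicate number.

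From the deposited counts, edgeR 4.0.16 (R 4.3.3) fitted a quasi-likelihood model with TMM scaling and 1 mean per group over all 32 libraries. Genes were kept by filterByExpr with a minimum count of 10 (11594 of 12901), and p-values were adjusted by Benjamini-Hochberg over them at 0.05. The SE is the log2 change divided by the root of its F value. Log2 CPM used a prior count of 2. The fit was also run on simulated counts, drawn independently for each library. The simulation held no doubled counts, outlying libraries or library index, so it cannot check the fit against them. Alternatives, DESeq2 1.42.0 among them, are described in the closing section.

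The members and gene lists were chosen with earlier results of these data known. Members were always named; from other lists, genes past the threshold were named, at most 4 per list and comparison, with a few others as examples chosen after their values were seen. Genes of like pattern were the 3 of highest r among genes with a symbol and a mean of at least 5 CPM. Listed genes such as Pecam1, Notch3 and Kcnmb1 were not analysed here.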

Additional observations from a re-analysis of the deposited data

Results flagged for a closer look

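In 52 checks within groups, of the 6 members, the library index and the summed intestinal, endothelial, fibroblast, tendon, red blood cell and skeletal muscle markers, for a library far from the rest of its group (Dixon's 95% value), 7 stood out; chance gives about 1 in 20. Acta2 at 225.3 CPM and Cnn1 at 24.5 CPM in KO_RT replicate 9 were each separated from the next library by 0.575 and 0.661 of the group's range. Cnn1 at 22.01 CPM in KO_4C replicate 3 was separated by 0.557 of its group's range. The summed intestinal epithelial markers of control_RT replicate 4, at 2346 CPM, were separated by 0.575 of the range. Red blood cell markers stood out in control_4C replicate 2 (3496 CPM, 0.887 of the range) and control_RT replicate 1 (760.7 CPM, 0.579 of the range), and tendon markers in KO_4C replicate 8 (608.5 CPM, 0.786 of the range). What set these libraries apart was not tested.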

How the results depend on the processing

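Limits: counts were all even, so counting noise is understated; the control groups differ in a library index without overlap; and calls of Acta2 and Cnn1 lie at the threshold. Scaling by RLE, scaling that left out the 20 most abundant genes, and counts divided by 2 left the call and direction of all 30 member differences as they were. Of the 6 members, 3 were called for cold in control rats; this became 1 with no filter, 1 at an adjusted p of 0.01, 1 without 4 libraries set apart, 5 without the 3 libraries high in intestinal markers, 0 with the index covariate (both last chosen after seeing the data), and 1 to 4 with 1 library left out. Other counts of members with 1 library left out were 0 to 2 for cold in knockout rats, 0 to 1 for genotype at room temperature, and 0 to 0 at 4 °C and in the interaction; genotype at room temperature gave 1 without the 4 libraries.

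Among all genes, cold in control rats called 2400 (adjusted p of 0.01: 1210, no filter: 2314, without the 4 libraries: 2010, without the 3 intestinal-marker libraries: 2092, compared groups alone: 2381, DESeq2: 2692, index covariate: 395, 1 library left out: 1804 to 2828). Cold in knockout rats called 1596 (0.01: 798, 1 left out: 1330 to 1703). Genotype at room temperature called 303 (0.01: 21, without the 4 libraries: 708, compared groups alone: 0, index covariate: 1, DESeq2: 573, 1 left out: 80 to 790). Genotype at 4 °C called 6 (RLE factors: 121, scaling without 20 abundant genes: 125, no filter: 3, 0.01: 0, counts divided by 2: 81, without the 3 intestinal-marker libraries: 0, compared groups alone: 0, index covariate: 300, DESeq2: 432, 1 left out: 0 to 557). The interaction called 3 (scaling without 20 abundant genes: 1, no filter: 1, 0.01: 0, without the 4 libraries: 288, index covariate: 1, DESeq2: 106, 1 left out: 0 to 226). DESeq2 and edgeR on the compared groups alone each called 4 members for cold in control rats. The causes were not tested.

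Differences that changed sign were all short of the threshold. With the index covariate these were Pdgfrb for cold in control rats (-0.0904), for genotype at room temperature (-0.10) and in the interaction (0.20), and Rgs5 for cold in control rats (0.10) and genotype at room temperature (0.0403). Without the 3 intestinal-marker libraries they were Rgs5 for cold in control rats (0.12), genotype at room temperature (0.0074) and the interaction (-0.0484), and at 4 °C Tagln (-0.10), Acta2 (-0.13), Pdgfrb (-0.0408) and Rgs5 (-0.041). With 1 library left out, the ranges that crossed 0 were, at 4 °C, Tagln -0.0482 to 0.15, Acta2 -0.10 to 0.11, Myh11 -0.17 to 0.0205, Pdgfrb -0.0012 to 0.15 and Rgs5 -0.0714 to 0.11. Others were Cnn1 -0.0267 to 0.50 and Rgs5 -0.06001 to 0.13 for cold in knockout rats, and Rgs5 -0.0827 to 0.0347 for cold in control rats, -0.0927 to 0.0133 for genotype at room temperature and -0.0348 to 0.14 in the interaction.

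The labels do not say what a shared replicate number means, and the check on the data did not settle it. Deviations of same-numbered samples correlated from -0.224 to 0.187 in control rats, -0.00186 to 0.146 in knockout rats, -0.123 to 0.179 between genotypes at room temperature and -0.0734 to 0.216 at 4 °C. Not every pair was over 0.1, so the numbers were not used to pair samples. A fit with the replicate number as a block, without the 2 unnumbered KO_RT libraries and in genotype comparisons with numbers up to 7, called 2 members for cold in control rats, Tagln and Pdgfrb. It called 11 genes for genotype at room temperature, 0 at 4 °C and 1 in the interaction; under this block Rgs5 for genotype at room temperature was 0.0993.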
